A study of Arabidopsis thaliana with 18 samples.

Results

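Late embryogenesis abundant (LEA) proteins are small, mostly very hydrophilic proteins that plants pile up in the seed before it dries, and some of them also appear in leaves and roots under cold, drought or abscisic acid. The genes described here are 51 LEA loci of Arabidopsis thaliana, taken by locus identifier from a list of the family. All 51 were among the 33602 loci counted in the second of 2 sets of libraries, and 50 could be tied to a locus among the 33201 of the first set. RAB18 (AT5G66400) was not used in the first set, since the entry with that symbol carried the identifier of another gene. The members fall into 9 families of the published classification, with 18 members in LEA_4, 10 dehydrins, 6 seed maturation proteins (SMP), 4 in LEA_3, 3 each in LEA_1, LEA_2 and PvLEA18, and 2 each in LEA_5 and AtM.

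The libraries hold polyA RNA of developing seeds, collected 9 to 10 days after flowering. The plants were either wild type (Col-0) or a badc1/badc3 double knockout from crosses of T-DNA insertion mutants, all grown in a chamber under long days. BADC proteins resemble the biotin-carrying subunit of plastid acetyl-CoA carboxylase but carry no biotin, and they hold back this entry enzyme of fatty acid synthesis. The study asked how losing a pair of them, which raises seed oil, changes metabolism. Each of the 6 groups has 3 libraries. The first set holds COL0 (wild type) and badc-tdna13 (double knockout), and the second holds AtWT (wild type), AtBD (double knockout), AtWTtr (wild type) and AtBDtr (double knockout). The study also describes plants of both genotypes that carry a FLAG-tagged ribosomal protein, HF-RPL18, driven by a soybean glycinin promoter, from which ribosome-bound RNA was pulled down with an anti-FLAG gel. The labels do not spell out what "tr" means, nor whether any AtWT or AtBD plant carried the transgene, so these libraries are called tr libraries. A glycinin promoter is known for activity in storage cells of the seed. The labels do not say how many plants or siliques a library pools, so the p-values measure the spread between libraries.

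LEA transcripts follow the seed's own programme. The B3 factors ABI3 and FUS3 with bZIP partners such as ABI5 and EEL switch on many of them through abscisic acid response elements (ABRE, core ACGTG) and RY elements (CATGCA), and the cold-inducible members are driven in leaves by CBF factors through the CRT/DRE core (CCGAC). LEA proteins are thought to protect membranes and other proteins as water leaves the cell, and many stay unfolded in solution and fold on drying.

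The 250 bases upstream of the annotated start were read for each member from the RefSeq annotation of TAIR10.1, on the strand of the gene, and searched for these 3 motifs on both strands. The ABRE core was found in 36 of 51 members, 70.6%, against 22.9% of 27443 promoters of all genes. At least 2 copies stood in 56.9% of the members against 8.84% of all promoters, where the palindrome CACGTG counts as 2 overlapping copies. The CRT/DRE core was found in 18 members, 35.3% against 11.97%, and the RY element in 9 members, 17.6% against 8.43%. A match is only a match of letters, and no match says nothing of a factor. Promoters of 4 members that turned out high in the tr libraries, and of 3 that turned out low, are shown to let the 2 kinds be compared by eye, with every match of the 3 motifs in capitals. EM1 (AT3G51810) lies at chr3:19214472-19214721 on the plus strand, EM6 (GEA6, AT2G40170) at chr2:16780369-16780618 on the minus strand, RAB18 at chr5:26519448-26519697 on the minus strand and AT3G02480 at chr3:511970-512219 on the plus strand.
EM1: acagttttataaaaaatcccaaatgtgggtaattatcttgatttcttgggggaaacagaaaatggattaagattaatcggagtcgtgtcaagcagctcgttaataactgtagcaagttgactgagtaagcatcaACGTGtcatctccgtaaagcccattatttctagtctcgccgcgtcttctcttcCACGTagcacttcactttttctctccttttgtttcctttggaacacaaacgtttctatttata
EM6: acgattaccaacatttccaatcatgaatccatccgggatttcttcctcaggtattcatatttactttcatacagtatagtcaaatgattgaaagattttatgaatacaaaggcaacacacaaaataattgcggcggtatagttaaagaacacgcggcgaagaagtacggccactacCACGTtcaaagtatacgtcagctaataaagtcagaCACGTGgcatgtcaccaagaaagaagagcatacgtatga
RAB18: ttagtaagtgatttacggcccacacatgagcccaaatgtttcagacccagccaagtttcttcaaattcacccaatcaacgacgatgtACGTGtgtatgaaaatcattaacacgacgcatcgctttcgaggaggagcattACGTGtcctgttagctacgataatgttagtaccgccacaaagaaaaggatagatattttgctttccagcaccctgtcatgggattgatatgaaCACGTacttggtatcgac
AT3G02480: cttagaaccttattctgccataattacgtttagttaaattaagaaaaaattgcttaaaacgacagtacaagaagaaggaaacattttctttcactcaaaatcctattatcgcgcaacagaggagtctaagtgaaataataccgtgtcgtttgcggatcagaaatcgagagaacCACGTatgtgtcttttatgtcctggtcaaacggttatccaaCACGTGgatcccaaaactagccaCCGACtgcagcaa
The 3 others are ERD14 (AT1G76180) at chr1:28587932-28588181, COR47 (AT1G20440) at chr1:7086874-7087123 and COR15A (AT2G42540) at chr2:17712331-17712580, all on the minus strand.
ERD14: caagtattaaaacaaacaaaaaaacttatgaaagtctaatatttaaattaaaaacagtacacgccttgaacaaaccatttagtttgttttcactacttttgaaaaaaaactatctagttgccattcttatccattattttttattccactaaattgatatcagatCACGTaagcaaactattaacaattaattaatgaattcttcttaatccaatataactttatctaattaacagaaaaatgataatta
COR47: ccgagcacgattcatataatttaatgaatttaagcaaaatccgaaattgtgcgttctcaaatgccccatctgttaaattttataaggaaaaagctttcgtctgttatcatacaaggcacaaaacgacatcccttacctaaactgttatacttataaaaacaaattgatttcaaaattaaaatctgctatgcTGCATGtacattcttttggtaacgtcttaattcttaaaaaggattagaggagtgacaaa
COR15A: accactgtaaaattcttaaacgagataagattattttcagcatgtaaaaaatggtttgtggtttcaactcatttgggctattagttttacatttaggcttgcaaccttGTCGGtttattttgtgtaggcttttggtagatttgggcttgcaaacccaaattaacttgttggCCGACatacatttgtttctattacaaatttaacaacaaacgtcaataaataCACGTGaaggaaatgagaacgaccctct
The windows of EM1, EM6, RAB18 and AT3G02480 hold 2, 3, 3 and 3 ABRE cores, and that of AT3G02480 also holds 1 CRT/DRE core. ERD14 has 1 ABRE core, COR47 has none but 1 RY element, and COR15A has 2 ABRE cores, both in 1 palindrome, and 2 CRT/DRE cores.

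Counts per library ran from 16977673 to 32547007 in the second set and from 9546528 to 11574156 fragments in the first. In the first set, 1 library seems to stand under both labels. COL0 replicate 2 and badc-tdna13 replicate 2 were compared at 17287 loci with a mean of at least 20 fragments and Cuffdiff status OK throughout. They agreed to within 0.5 fragments at all of these loci, whereas other pairs agreed at 92 to 288. The totals of these 2 libraries still differed, at 10624146 and 10787634 fragments, so the 2 were not equal at every locus. Results of the first set are therefore given with and without both. The tissue label was checked against 9 storage protein and oleosin genes of the embryo, which summed to 137043 to 188581 CPM (counts scaled to a common library size, with totals adjusted by TMM, the trimmed mean of M-values) in AtWT, 227435 to 282441 in AtBD, 517113 to 834962 in AtWTtr and 487687 to 784586 in AtBDtr. The first set could be checked only with the 4 of these genes that were matched there, at 22686 to 42128 CPM. None of the 9 was at 0 in the second set, and 1 of the 4 was at 0 in the first.

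LEA transcripts were already present in seeds of this age, at very uneven levels. In AtWT, 8 of 51 members averaged at least 100 CPM, 17 lay between 10 and 100, 9 between 1 and 10, and 17 under 1. Of these 17, AT2G33690 and AT3G53770 had no count in any of the 12 libraries, which allows each up to 0.0114 CPM over all 262659272 counts. Per kilobase of exon, the highest mean levels in AtWT were those of AT3G02480 (LEA_4) at 849 CPM per kb, the dehydrin AT2G21490 (symbol LEA) at 384, AT3G15670 (LEA_4) at 273, AT4G21020 (LEA_4) at 232 and ERD14, an acidic dehydrin also induced by dehydration in leaves, at 119. AT3G02480 had 279, 644 and 479 CPM in the 3 AtWT libraries, 783, 739 and 863 in AtBD, 2271, 3556 and 2317 in AtWTtr, and 2720, 2878 and 1292 in AtBDtr. It was lowest in AtWT and highest in the tr libraries, and the AtWT and AtBD libraries did not overlap. In COL0 without the shared library, 21 of 50 members averaged at least 100 CPM, 12 lay between 10 and 100, 7 between 1 and 10, and 10 under 1. The 2 sets were scaled apart, so these levels stand side by side only. EM6 shows how far they can lie apart, with 0.395, 0.965 and 1.46 CPM in the 3 AtWT libraries and 127 and 187 CPM in COL0 replicates 0 and 1.

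**Figure D1:**
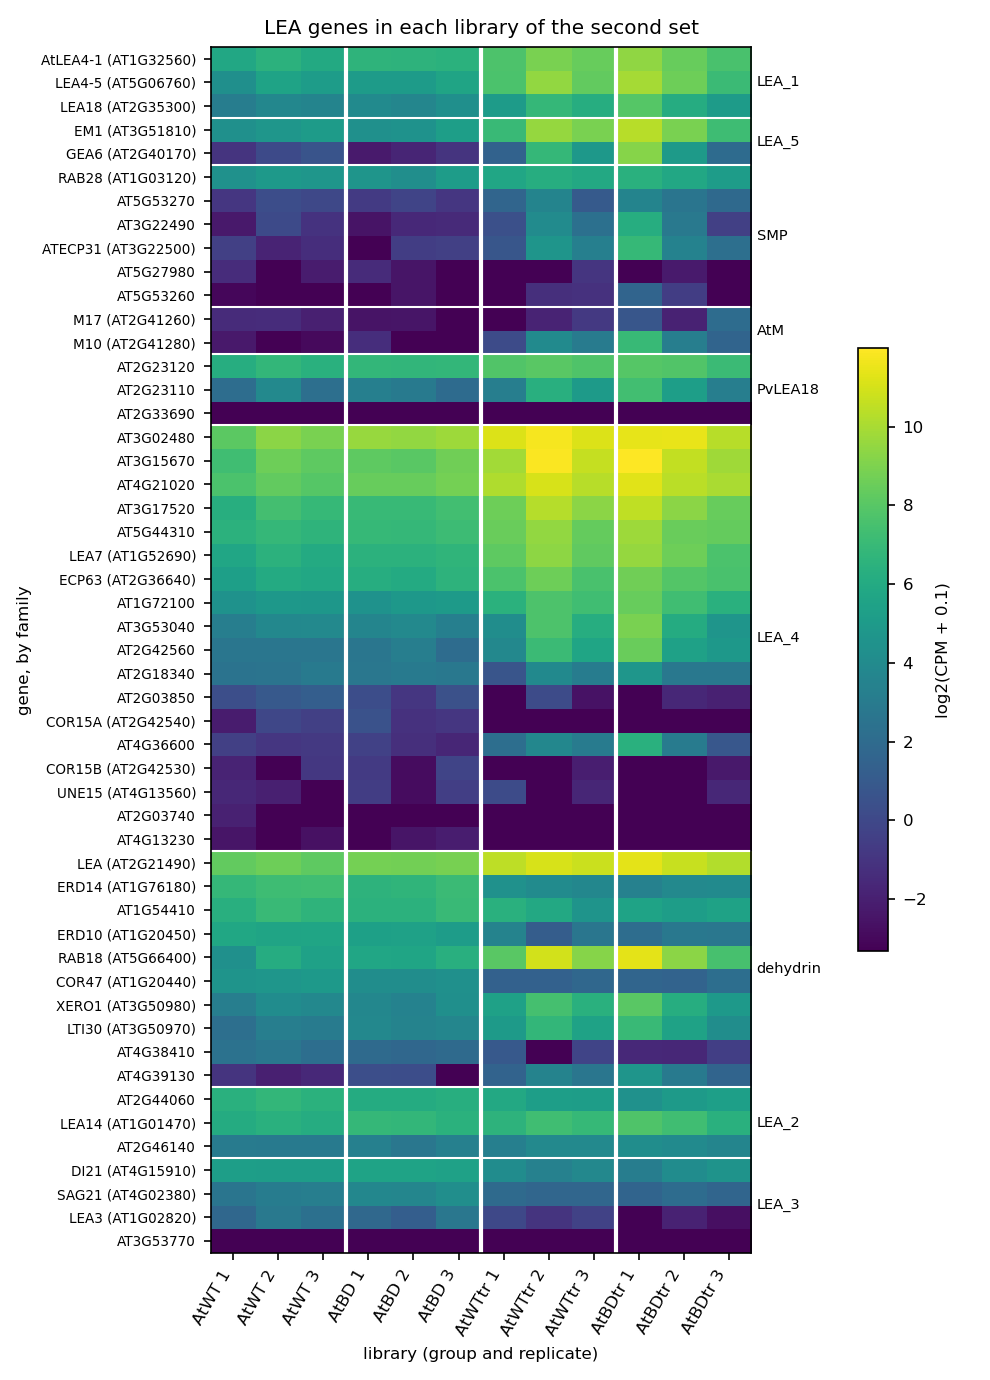
Levels of the 51 LEA genes (rows, by family) in the 12 libraries of the second set (columns), as log2(CPM + 0.1), with dark cells at or near 0. Most LEA_1, LEA_5, SMP and LEA_4 rows are brightest in the tr libraries. ERD14, ERD10, COR47 and the LEA_3 rows other than AT3G53770, which has no counts, are darker there.

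In the tr libraries most LEA genes were higher than in the other libraries of the same genotype. Of the 44 members tested, 29 rose and 9 fell in AtWTtr against AtWT (edgeR's quasi-likelihood test, Benjamini-Hochberg adjusted p under 0.05 over 19376 genes), beside 15.1% of all genes higher and 19.1% lower. In AtBDtr against AtBD, 29 rose and 10 fell, beside 12.8% higher and 16.9% lower. The 29 that rose were the same genes in both genotypes, 9 fell in both, and AT1G54410 (HIRD11) was the additional one in the double knockout. The median log2 fold change of the tested members was 2.38 in wild type and 2.09 in the double knockout, against -0.04 and -0.03 over all genes. The 7 members not tested, for low counts, were AT2G33690, AT3G53770, AT2G03740, AT4G13230, AT5G27980, AT5G53260 and M17 (AT2G41260). With plain library totals in place of TMM, the median over all genes moved to -0.99 in wild type and -0.73 in the double knockout, all genes split into 437 higher and 10203 lower, and 424 higher and 7393 lower, and the members into 25 higher and 11 lower in each genotype. As a plain share of all gene counts, which no scaling touches, the 51 members took 0.295% to 0.443% in AtWT, 0.382% to 0.488% in AtBD, 0.721% to 1.53% in AtWTtr and 0.626% to 1.70% in AtBDtr, so the tr libraries did not overlap the others. Fewer cells of a type and less RNA per cell cannot be told apart in such bulk samples.

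**Figure D2:**
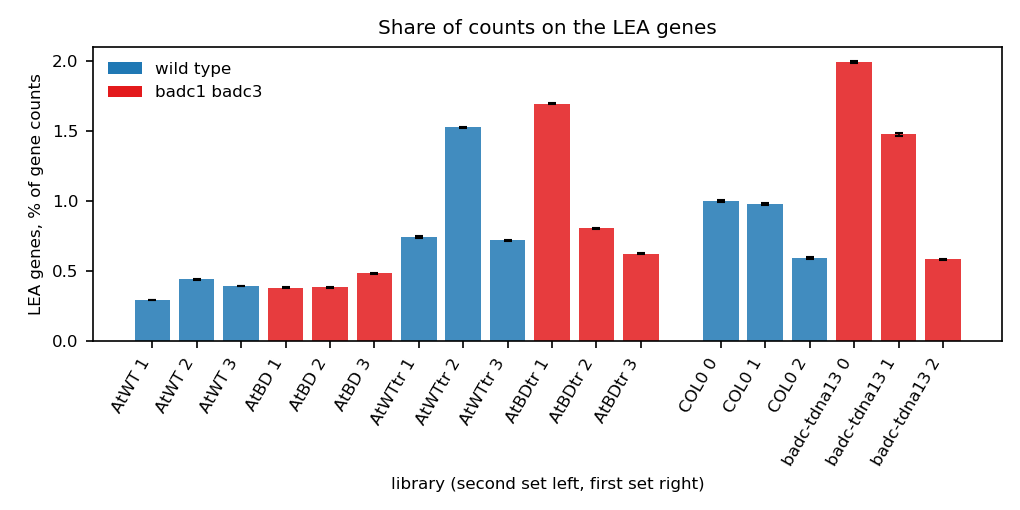
Share of all gene counts that fell on the LEA genes in each of the 18 libraries, in percent, with 95% Wilson intervals for counting error as bars. The tr libraries reach 0.626% to 1.70% and the AtWT and AtBD libraries stay at or below 0.488%. COL0 replicate 2 and badc-tdna13 replicate 2 hold the same sum of LEA counts, and their shares differ only through their totals.

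LEA_5, the Em proteins, are the classic markers of late seed maturation. EM1 had 20.1, 26.2 and 33.8 CPM in AtWT, 20.3, 21.9 and 38.4 in AtBD, 132, 742 and 482 in AtWTtr and 1292, 478 and 147 in AtBDtr. Every tr library was above every other library. The rise was 4.08 ± 0.70 (SE) on the log2 scale in wild type (16.9-fold, edgeR adjusted p = 0.000396) and 4.57 ± 0.71 in the double knockout (23.8-fold, adjusted p = 0.000237), and 3.51 ± 0.56 without AtBDtr replicate 1. EM6, the other LEA_5 gene, had 2.67, 116 and 28.04 CPM in AtWTtr and 601, 32.5 and 3.97 in AtBDtr, from 0.115 to 0.392 CPM in AtBD. The tr libraries again lay above all others but differed among themselves by 43.5-fold in AtWTtr and 152-fold in AtBDtr. Its log2 rise of 5.73 ± 1.51 in wild type (edgeR adjusted p = 0.00889) was 4.07 ± 1.38 without AtWTtr replicate 2, and that of 9.82 ± 1.88 in the double knockout (adjusted p = 0.00126) was 6.25 ± 1.24 without AtBDtr replicate 1.

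All 3 LEA_1 genes rose in both genotypes. AtLEA4-1 (AT1G32560), the highest of them per kilobase in AtWT, had 57.6, 90.9 and 63.0 CPM in AtWT, 98.6, 95.3 and 86.6 in AtBD, 209.9, 478 and 350.0 in AtWTtr and 691, 347 and 196 in AtBDtr. The tr libraries did not overlap the others, and the log2 rises were 2.30 ± 0.39 and 2.14 ± 0.39 (edgeR adjusted p = 0.000388 and 0.000836), the second being 1.52 ± 0.32 without AtBDtr replicate 1. LEA4-5 (AT5G06760), a LEA_1 member known to accumulate in stressed vegetative tissue as well, rose 12.2-fold and 12.95-fold, and LEA18 (AT2G35300) 6.56-fold and 7.21-fold. Without AtBDtr replicate 1 the log2 rises in the double knockout went from 3.69 to 2.73 for LEA4-5 and from 2.85 to 1.68 for LEA18, and without AtWTtr replicate 2 that of LEA4-5 in wild type went from 3.61 to 2.92.

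The 4 seed maturation protein genes that could be tested rose in both genotypes. RAB28 (AT1G03120), an abscisic acid responsive gene and the most abundant of them, rose least, from 20.9, 31.1 and 25.8 CPM in AtWT to 53.6, 75.2 and 59.9 in AtWTtr, and from 25.7, 19.0 and 34.6 in AtBD to 83.8, 58.0 and 35.6 in AtBDtr. Its log2 rises were 1.28 ± 0.29 and 1.16 ± 0.29 (edgeR adjusted p = 0.00353 and 0.0077), and neither passed the test with plain library totals, nor did the second without AtBDtr replicate 1. ECP31 (ATECP31, AT3G22500), named after a carrot protein of embryogenic cells, went from 0.644, 0.187 and 0.305 CPM in AtWT to 1.64, 25.0 and 9.51 in AtWTtr, and from 0, 0.594 and 0.653 in AtBD to 123, 10.8 and 4.63 in AtBDtr. AT5G53270 had 0.436, 1.15 and 0.915 CPM in AtWT, 0.4998, 0.792 and 0.436 in AtBD, 3.08, 12.1 and 1.89 in AtWTtr and 12.04, 5.999 and 3.64 in AtBDtr. No tr library of either gene fell among the others. The log2 rises of ECP31 were 4.91 ± 1.23 and 6.79 ± 1.33 (edgeR adjusted p = 0.00635 and 0.00144), or 3.8 ± 1.2 and 4.19 ± 0.95 without AtWTtr replicate 2 and AtBDtr replicate 1. Those of AT5G53270 were 2.78 ± 0.66 and 3.63 ± 0.70 (adjusted p = 0.00471 and 0.00133), and the first was 1.56 ± 0.57 without AtWTtr replicate 2 (adjusted p = 0.0548). AT3G22490, next to ECP31 and 81.2% identical to it in protein sequence, rose too, with log2 values of 4.0 ± 1.28 and 7.14 ± 1.52. The second value was 4.30 ± 1.13 without AtBDtr replicate 1. Its call in wild type was lost without AtWTtr replicate 2, AtWT replicate 1 or AtWT replicate 3 (edgeR adjusted p up to 0.137).

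M10 (AT2G41280), a transcript of late seed development, was near the limit of detection outside the tr libraries. It had 0.104, 0 and 0.0305 CPM in AtWT, 0.308, 0 and 0 in AtBD, 1.03, 15.9 and 8.32 in AtWTtr and 129, 9.11 and 2.92 in AtBDtr. All 6 tr libraries were higher than the 6 others. The log2 values of 7.2 ± 1.62 and 8.70 ± 1.59 (edgeR adjusted p = 0.00324 and 0.000855) rest on these few counts and fell to 6.36 ± 1.66 and 5.73 ± 1.13 without AtWTtr replicate 2 and AtBDtr replicate 1. Its neighbour M17, 72.9% identical over the shorter protein, had 0.270, 0.280 and 0.153 CPM in AtWT, 0.0769, 0.0792 and 0 in AtBD, 0, 0.193 and 0.489 in AtWTtr and 1.64, 0.173 and 4.13 in AtBDtr, and was too low for a test.

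Of the PvLEA18 genes, AT2G23120 had 74.9, 112 and 83.5 CPM in AtWT, 111, 108 and 113 in AtBD, 231, 273 and 219 in AtWTtr and 249, 230.3 and 139.8 in AtBDtr. The tr libraries lay above the others, by 1.41 ± 0.23 and 0.90 ± 0.23 on the log2 scale (edgeR adjusted p = 0.000272 and 0.0081), and neither rise passed the test with plain library totals. AT2G23110 was called in both genotypes too, but its groups overlapped, with 9.23 CPM in AtWTtr replicate 1 beside 14.9 CPM in AtWT replicate 2, and its calls were lost under 7 alternatives in wild type, leaving out AtWTtr replicate 2 among them, and without AtBDtr replicate 1 or AtBD replicate 3 in the double knockout.

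LEA_4 is the largest family, whose proteins can form amphipathic helices. Of its 16 tested members, 11 rose and 1 fell in each genotype. AT4G21020 had 204, 312 and 251 CPM in AtWT, 349, 349 and 438 in AtBD, 1148, 2120 and 1292 in AtWTtr and 2557, 1366 and 1038 in AtBDtr. AT3G15670 had 159, 389 and 286 CPM in AtWT, 287, 269 and 404 in AtBD, 930.0, 3764 and 1627 in AtWTtr and 4054, 1554 and 892 in AtBDtr. For both, each tr library exceeded each of the others. The log2 rises of AT4G21020 were 2.57 ± 0.34 and 2.13 ± 0.33 (edgeR adjusted p = 4.06e-05 and 0.000235). Those of AT3G15670 were 2.92 ± 0.56 and 2.76 ± 0.56 (adjusted p = 0.00104 and 0.00188), or 2.19 ± 0.50 and 1.91 ± 0.47 without AtWTtr replicate 2 and AtBDtr replicate 1. AT3G02480, whose values are given above, rose by 2.54 ± 0.35 and 1.53 ± 0.34 (adjusted p = 6.16e-05 and 0.00328). The second call was lost with plain library totals.

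Other LEA_4 genes climbed from very little. AT4G36600 had 0.644, 0.436 and 0.488 CPM in AtWT, 0.692, 0.317 and 0.218 in AtBD, 4.51, 13.4 and 8.32 in AtWTtr and 82.7, 8.08 and 1.65 in AtBDtr. AT2G42560, the longest LEA protein here with 635 residues, had 6.40, 6.35 and 6.47 CPM in AtWT, 6.42, 9.26 and 4.14 in AtBD, 14.2, 138 and 52.0 in AtWTtr and 353, 43.9 and 28.1 in AtBDtr. The AtWT libraries of AT2G42560 were almost equal while the tr libraries spread widely above them. AT4G36600 rose by 4.03 ± 1.01 and 6.19 ± 1.12 (edgeR adjusted p = 0.00663 and 0.000802), the second being 3.52 ± 0.66 without AtBDtr replicate 1. AT2G42560 rose by 3.41 ± 0.86 and 4.42 ± 0.90 (adjusted p = 0.00649 and 0.00189), and by 2.37 ± 0.78 and 2.43 ± 0.57 without AtWTtr replicate 2 and AtBDtr replicate 1. AT1G72100 had 21.99, 28.8 and 27.7 CPM in AtWT, 22.3, 28.2 and 32.8 in AtBD, 86.0, 212 and 157 in AtWTtr and 348, 158 and 84.7 in AtBDtr, and rose by 2.54 ± 0.42 and 2.83 ± 0.43 (adjusted p = 0.000331 and 0.000188), the second being 2.11 ± 0.33 without AtBDtr replicate 1. No tr library of it came near the others. ECP63 (AT2G36640), LEA7 (AT1G52690), AT3G17520, AT3G53040 and AT5G44310 completed the 11, with rises of 3.52-fold (ECP63 in the double knockout) to 15.3-fold (AT3G53040 in the double knockout). Without AtBDtr replicate 1 the log2 rise of AT3G53040 was 1.91 ± 0.63 in place of 3.94, and its call in wild type was lost without AtWT replicate 1, AtWT replicate 2 or AtWTtr replicate 2 (edgeR adjusted p up to 0.105). LEA7, AT3G17520 and AT5G44310 went from 2.24, 2.56 and 2.03 to 1.61, 1.79 and 1.42 without AtBDtr replicate 1.

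The exception among the LEA_4 genes was COR15A, a cold-induced protein of the chloroplast stroma. It had 0.125, 0.840 and 0.641 CPM in AtWT, 1.35, 0.356 and 0.436 in AtBD, and no count in any of the 6 tr libraries. Set against a floor of 3 counts over the 3 libraries of a group, it was at least 7.09-fold lower in AtWTtr and at least 11.7-fold lower in AtBDtr, with edgeR adjusted p = 0.0249 and 0.019. The calls did not hold with the replicate number as a block, nor without each of 5 single libraries in wild type and 2 in the double knockout (adjusted p up to 0.0616 and 0.0701). COR15B (AT2G42530), UNE15 (AT4G13560), AT2G03850 and AT2G18340 did not pass the test in either genotype, and COR15A and COR15B, 77.0% identical in protein, could exchange reads in the counting.

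The 10 dehydrins split. RAB18, XERO1 (AT3G50980), LTI30 (AT3G50970), AT2G21490 and AT4G39130 rose in both genotypes, while COR47, ERD10 (AT1G20450), ERD14 and AT4G38410 fell in both and HIRD11 fell in the double knockout only by its own test. AT2G21490 had 314, 383 and 295 CPM in AtWT, 449, 421 and 456 in AtBD, 1405, 2099 and 1710.1 in AtWTtr and 2640.3, 1679 and 1196 in AtBDtr, rising by 2.39 ± 0.28 and 2.06 ± 0.27 (edgeR adjusted p = 1.33e-05 and 6e-05). RAB18, the glycine-rich dehydrin first known for its response to abscisic acid, had 20.1, 70.3 and 43.8 CPM in AtWT, 53.9, 51.6 and 79.5 in AtBD, 273, 1936 and 594 in AtWTtr and 2607, 629.5 and 183 in AtBDtr. For both genes the tr libraries stood apart from the others. RAB18 rose by 4.39 ± 0.87 and 4.21 ± 0.86 (adjusted p = 0.00131 and 0.00205), or 3.27 ± 0.76 and 2.69 ± 0.65 without AtWTtr replicate 2 and AtBDtr replicate 1. XERO1 rose 7.44-fold and 8.45-fold, LTI30, a cold-induced dehydrin that binds membranes, 8.61-fold and 5.12-fold, and AT4G39130 24.9-fold and 15.6-fold. Without AtBDtr replicate 1 the log2 rises in the double knockout went from 3.08 to 1.82 for XERO1, from 2.36 to 1.30 for LTI30 and from 3.96 to 2.75 for AT4G39130. Without AtWTtr replicate 2 those in wild type went from 2.90 to 2.24, from 3.11 to 2.40 and from 4.63 to 4.03.

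The dehydrins that fell include the 3 closely related acidic ones of leaves under cold and drought. COR47 had 24.5, 26.7 and 30.2 CPM in AtWT, 18.3, 17.9 and 20.4 in AtBD, 2.60, 2.63 and 3.36 in AtWTtr and 3.13, 2.83 and 4.57 in AtBDtr. ERD10 had 56.1, 48.1 and 50.96 CPM in AtWT, 42.3, 43.4 and 35.9 in AtBD, 11.3, 2.18 and 6.22 in AtWTtr and 4.30, 6.98 and 6.504 in AtBDtr. ERD14 had 119, 148 and 154 CPM in AtWT, 93.5, 103 and 136 in AtBD, 21.3, 16.6 and 13.2 in AtWTtr and 10.4, 14.7 and 16.0 in AtBDtr. Each tr library of these genes lay below each of the others. COR47 fell, with log2 changes of -3.24 ± 0.24 and -2.42 ± 0.23 (edgeR adjusted p = 2.66e-07 and 2.62e-06). ERD10 changed by -2.98 ± 0.39 and -2.76 ± 0.39 (adjusted p = 4.32e-05 and 0.000101). ERD14 changed by -3.04 ± 0.24 and -3.01 ± 0.24 (adjusted p = 4.96e-07 and 5.4e-07). AT4G38410 fell 6.26-fold and 9.91-fold from no more than 6.53 CPM. HIRD11 had 79.2, 131 and 100.3 CPM in AtWT and 82.6, 61.2 and 24.1 in AtWTtr, which overlapped (log2 -0.89 ± 0.34, adjusted p = 0.0538), and 90.3, 92.5 and 133 in AtBD against 46.5, 36.3 and 45.4 in AtBDtr, which did not (log2 -1.3 ± 0.34, adjusted p = 0.00968).

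The remaining families are LEA_3 and LEA_2. All 3 tested LEA_3 genes fell in both genotypes. DI21 (AT4G15910), named for its induction by drought, had 38.5, 36.6 and 36.0 CPM in AtWT, 46.7, 47.7 and 43.2 in AtBD, 17.2, 10.5 and 13.8 in AtWTtr and 8.92, 17.7 and 23.4 in AtBDtr. SAG21 (AT4G02380), a mitochondrial protein linked to oxidative stress and senescence, had 6.02, 8.40 and 9.31 CPM in AtWT, 13.3, 12.9 and 18.8 in AtBD, 3.76, 3.27 and 3.29 in AtWTtr and 2.89, 4.15 and 3.03 in AtBDtr. LEA3 (AT1G02820) had 3.38, 7.13 and 4.82 CPM in AtWT, 3.54, 2.30 and 6.53 in AtBD, 0.888, 0.385 and 0.699 in AtWTtr and 0, 0.173 and 0.0551 in AtBDtr. In all 3 genes the tr libraries were the low ones without overlap. All 3 fell, with log2 changes for DI21 of -1.42 ± 0.28 and -1.46 ± 0.27 (edgeR adjusted p = 0.00109 and 0.00113), for SAG21 of -1.20 ± 0.27 and -2.15 ± 0.27 (adjusted p = 0.0032 and 3.9e-05), and for LEA3 of -2.95 ± 0.58 and -5.56 ± 0.75 (adjusted p = 0.00122 and 6.43e-05). Of the LEA_2 genes, whose proteins are folded and less hydrophilic, AT2G44060 had 82.9, 112 and 87.8 CPM in AtWT, 69.3, 68.1 and 78.1 in AtBD, 59.4, 37.4 and 37.1 in AtWTtr and 21.0, 31.8 and 39.6 in AtBDtr. The tr libraries were the lower ones, and it fell, by log2 changes of -1.08 ± 0.24 and -1.22 ± 0.25 (adjusted p = 0.0034 and 0.00182). AT2G46140 rose by 0.75 ± 0.24 and 0.82 ± 0.24 (adjusted p = 0.0269 and 0.0203) with TMM but stood at -0.22 ± 0.25 and 0.08 ± 0.25 with plain library totals, and its calls were also lost without single libraries. LEA14 (AT1G01470) passed in neither genotype.

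**Figure D3:**
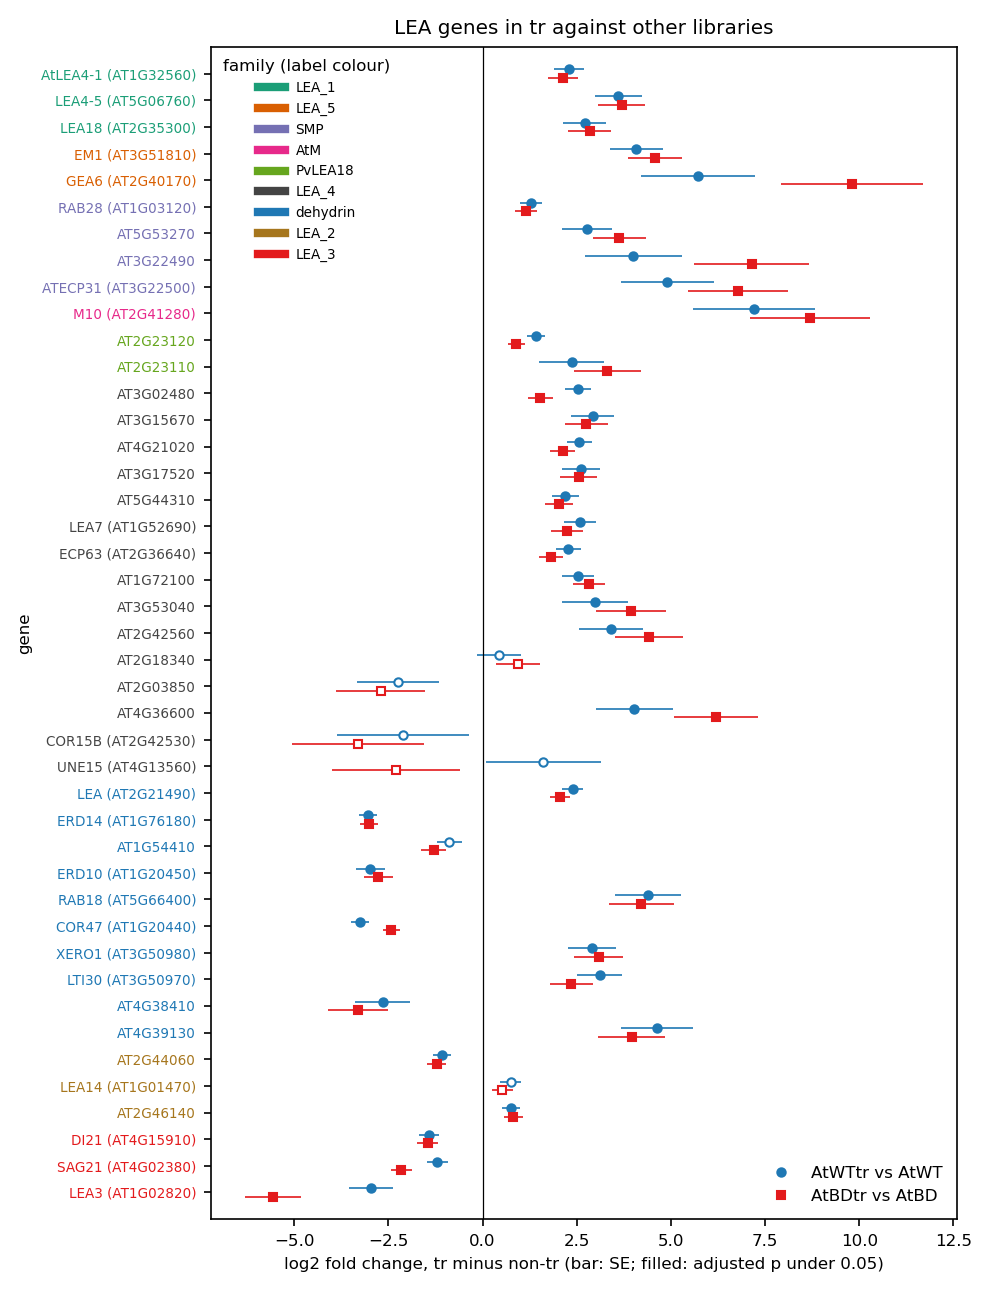
Log2 fold change of 43 tested LEA genes (rows, labels coloured by family) in the tr libraries against the other libraries of the same genotype, with SE as bars, wild type as blue circles, double knockout as red squares, and filled points past the test. COR15A, with no count in the tr libraries, is left out. The points of the 29 genes that rose lie right of 0 in both genotypes and those of ERD14, ERD10, COR47 and the LEA_3 genes lie left of it.

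**Figure D4:**
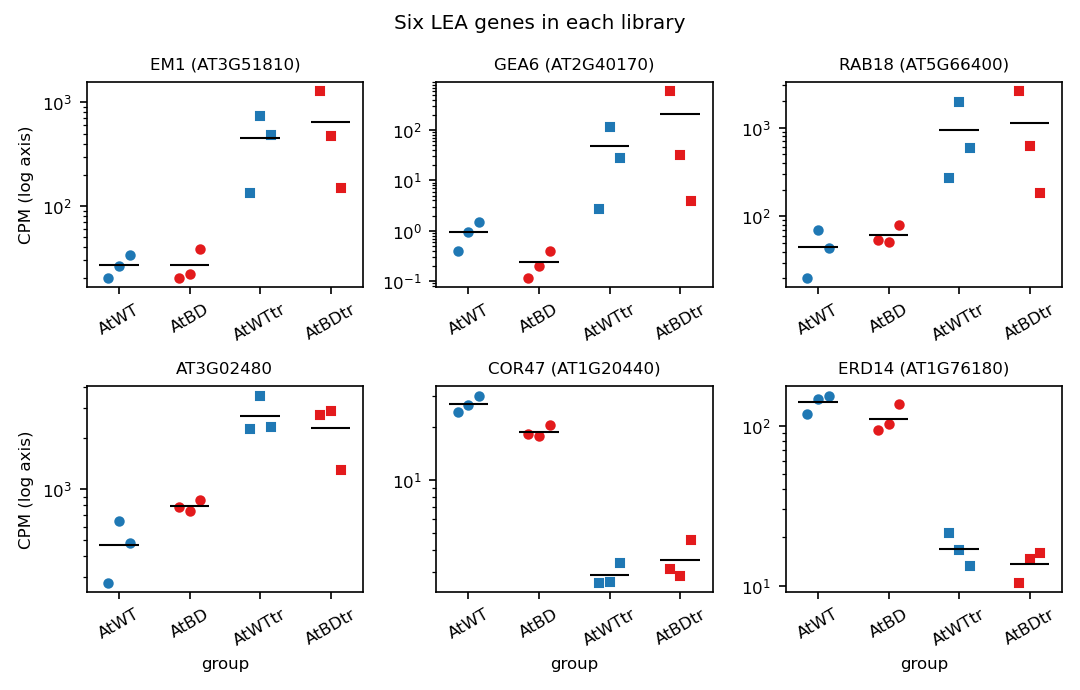
Level of 6 LEA genes in every library of the second set, in CPM on a log axis, with the mean of each group as a line. EM1, EM6, RAB18 and AT3G02480 are higher in all 6 tr libraries than in the 6 others, and COR47 and ERD14 are lower in all 6.

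The risen genes were often highest in the same library of a group. Of the 29 risen members, 28 were highest in AtWTtr replicate 2 within their group, and 25 were lowest in replicate 1. In the double knockout 28 were highest in AtBDtr replicate 1 and all 29 lowest in replicate 3. A weaker order stood outside the tr groups, where 20 of the 29 were highest in AtWT replicate 2, 22 lowest in AtWT replicate 1 and 20 highest in AtBD replicate 3. The ratio of the highest to the lowest library of a group had a median over these 29 genes of 3.42 in AtWTtr and 7.11 in AtBDtr, against 1.72 in AtWT and 1.501 in AtBD. Without AtBDtr replicate 1, 22 of the 39 called members moved by more than 1.5-fold and 36 stayed called. Without AtWTtr replicate 2, 14 of the 38 called members moved by more than 1.5-fold and 32 stayed called. Leaving out another single library moved no more than 4 called members this far. In wild type, M10 and ECP31 went to 8.63 and 5.58 without AtWT replicate 1, AT2G23110 and AT3G22490 to 3.19 and 5.07 without AtWT replicate 2, and ERD10 and AT4G38410 to -3.62 and -3.84 without AtWTtr replicate 1. In the double knockout, M10, ECP31 and AT4G36600 went to 13.07, 6.19 and 6.81 without AtBD replicate 1, LEA3 to -6.82 without AtBDtr replicate 2 and AT4G38410 to -3.98 without AtBDtr replicate 3. COR15A, with no count in the tr libraries, also moved without AtBD replicate 1.

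The motif matches are given by call as a description, and no difference between the calls was tested. An ABRE core stood in 26 of the 29 members that rose in both genotypes, with a median of 3 sites, in 4 of the 9 that fell in both, with a median of 0, and in 4 of the 6 other tested members. The CRT/DRE core stood in 15 of the 29, 3 of the 9 and 0 of the 6, and the RY element in 7, 1 and 0. COR15B is among the 6, and its window lies mostly within the annotated span of COR15A, so it may not be a promoter.

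Known regulators of LEA genes were read in the same tests. Of 10 seed maturation regulators, 7 rose in both genotypes in the tr libraries, namely ABI3, ABI4, ABI5, FUS3, EEL, BZIP67 and DOG1, while LEC1, a factor of earlier embryo growth, fell in both and LEC2 fell in wild type. BZIP53 had no count in any library of the second set. ABI5, a bZIP factor that binds ABRE sequences, had 7.70, 10.2 and 10.8 CPM in AtWT, 11.7, 16.7 and 19.5 in AtBD, 24.0, 69.3 and 36.7 in AtWTtr and 91.0, 46.8 and 25.6 in AtBDtr. Its highest libraries were AtWTtr replicate 2 and AtBDtr replicate 1, as for most risen LEA genes. The part of the regulators in the LEA results was not tested. ABI3 had 74.0, 45.4 and 68.5 CPM in AtWT, 68.4, 83.3 and 85.5 in AtBD, 255, 285 and 334 in AtWTtr and 351, 311 and 298 in AtBDtr, so its tr libraries lay close together. The log2 rises were 2.18 ± 0.42 and 1.77 ± 0.42 for ABI5 (edgeR adjusted p = 0.00111 and 0.00519) and 2.22 ± 0.22 and 2.02 ± 0.22 for ABI3 (adjusted p = 2.9e-06 and 7.36e-06). Of 7 regulators known from cold or abscisic acid in vegetative tissue, ABF3 fell in both genotypes, ABF1, ABF2 and ABF4 did not pass, and the 3 CBF genes were too low for a test.

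Cell type markers moved with the tr libraries as well, and their part in the LEA results was not tested. All 9 embryo genes rose in both genotypes. Of 5 tested seed coat genes, 5 fell in wild type and 4 in the double knockout, and the 6 on the list summed to 570 to 895 CPM in AtWT, 251 to 478 in AtBD, 31.1 to 55.5 in AtWTtr and 30.9 to 58.3 in AtBDtr. Of 5 silique wall genes, 4 fell in wild type and 5 in the double knockout, from sums of 58.6 to 74.1 CPM in AtWT and 44.0 to 64.2 in AtBD to 8.15 to 10.11 in AtWTtr and 8.76 to 9.81 in AtBDtr. Of 4 endosperm genes, ZOU, ALE1 and SUC5 fell and EPR1 rose in both genotypes, and their sum, most of it EPR1, ran from 2341 to 3325 CPM in AtWT, 2600.3 to 4067 in AtBD, 5929 to 16292 in AtWTtr and 8582 to 13486 in AtBDtr. In single libraries of the second set none of the 9 embryo genes, up to 2 of the 4 endosperm genes, up to 3 of the 6 seed coat genes and up to 1 of the 5 silique wall genes were at 0.

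Between the genotypes of the second set, no LEA gene passed the test. In AtBD against AtWT, 0 of 44 members were called (edgeR, smallest adjusted p 0.455, 3 members at an unadjusted p under 0.05, and 0 by DESeq2), beside 0.0568% of all genes. The median log2 difference was 0.18, with 31 of 44 positive, against 0.00 over all genes. This lean was not stable, with a median of -0.04 and 19 of 44 positive under plain library totals, and -0.02 and 22 of 45 positive without AtWT replicate 1. The 3 members with the smallest p were SAG21, COR47 and AT3G02480. SAG21 was higher in AtBD by 0.93 ± 0.26 (edgeR adjusted p = 0.455), with all 3 AtBD libraries above all 3 of AtWT. COR47 was lower by 0.52 ± 0.21 (adjusted p = 0.708), and AT3G02480 higher by 0.77 ± 0.33 (adjusted p = 0.773), each without overlap. In all, 9 members were higher in AtBD without overlap, beside 8.79% of all genes, and 5 were lower, beside 10.9%. As shares of the 44 members these counts stand above and near the background. Summed levels of 3 other lists also differed without overlap between AtBD and AtWT, none of their genes being called, and their part was not tested. The embryo genes were higher in AtBD, the seed maturation regulators were higher at 467 to 626 against 383 to 404.5 CPM, and the seed coat genes were lower at 251 to 478 against 570 to 895 CPM. AtBDtr against AtWTtr gave 0 of 44 members too (edgeR, smallest adjusted p 0.695, 3 at an unadjusted p under 0.05, and 0 by DESeq2), beside 0.0413% of all genes. LEA3 (log2 -2.92 ± 0.82, adjusted p = 0.695), M10 (2.47 ± 1.05, adjusted p = 0.948) and AT2G44060 (-0.53 ± 0.24, adjusted p = 0.955) had the smallest p there. The median of 0.20 depended on single libraries, with -0.44 without AtBDtr replicate 1 and 0.59 without AtWTtr replicate 2.

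Whether the tr difference itself depended on the genotype was tested as an interaction. No member and 0% of all genes passed (edgeR, 4 members at an unadjusted p under 0.05, and 0 members by DESeq2). LEA3 (-2.61 ± 0.97), COR47 (0.82 ± 0.32), SAG21 (-0.96 ± 0.38) and AT3G02480 (-1.01 ± 0.47) were those 4, each with an edgeR adjusted p of 1.0 and each as the log2 change in the double knockout minus that in wild type. The last 3 also had the smallest p in AtBD against AtWT, which uses the same AtWT and AtBD libraries.

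In the first set the answer turned on the library that seems to stand under both labels. With all 6 libraries, 0 of 40 members and 0% of all genes were called in badc-tdna13 against COL0 (edgeR, smallest adjusted p 0.809, 8 members at an unadjusted p under 0.05, and 0 members by DESeq2). The median log2 difference was 0.78, with 34 of 40 positive. Without both copies, 2 libraries a group remained and 16 of 41 members were higher and 1 lower, beside 5.23% of all genes higher and 5.1% lower, with a median of 1.08. Calls among members and all genes were lost when either remaining COL0 library was left out as well. They grew in number, among members and all genes alike, when a badc-tdna13 library was left out instead. The median was 1.12 and 1.09 without COL0 replicate 0 and without replicate 1, with 35 of 41 positive in each. It was 0.64 and 1.20 without badc-tdna13 replicate 0 and without replicate 1. Where 1 library is left alone its spread is taken from the other group, and these 2-library results are no more than a description of 4 libraries.

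Values of the members with the smallest adjusted p in this 4-library comparison follow. M10 had 9.54 and 11.97 CPM in COL0 and 95.6 and 61.6 in badc-tdna13, beside 7.08 in the shared library (log2 2.85 ± 0.25, edgeR adjusted p = 0.00931). AT4G36600 had 3.64 and 3.84 CPM in COL0 and 36.6 and 24.0 in badc-tdna13, beside 2.11 (2.99 ± 0.25, adjusted p = 0.00925). ECP31 had 17.5 and 20.6 CPM in COL0 and 112 and 82.4 in badc-tdna13, beside 12.9 (2.33 ± 0.20, adjusted p = 0.00908). In all 3 the shared library was lower than every other library. AT2G42560 had 475 and 435 CPM against 1660.0 and 1417, AT1G72100 84.8 and 87.2 against 205 and 190.5, and AT5G53270 11.5 and 13.1 against 42.2 and 29.5. Their log2 differences were 1.74 ± 0.19, 1.19 ± 0.15 and 1.52 ± 0.21 (edgeR adjusted p = 0.011, 0.0136 and 0.0157). COR47 was higher, with 57.8 and 41.7 CPM in COL0 and 104 and 110 in badc-tdna13 (1.09 ± 0.19, adjusted p = 0.0261), and so was SAG21, with 11.4 and 9.14 against 19.4 and 21.0 (0.96 ± 0.18, adjusted p = 0.0317). The shared library had 87.4 CPM of COR47 and 31.8 of SAG21, the latter above every other library. COR47 thus stood higher in the double knockout of the first set and lower, without a call, in that of the second. The 1 lower member was AT4G38410, with 5.41 and 3.20 CPM in COL0 and 0.329 and 1.04 in badc-tdna13 (-2.63 ± 0.57, adjusted p = 0.041). By family, 7 of 13 tested LEA_4 genes, 3 of 5 SMP genes and 4 of 9 dehydrins were higher, and 0 of 3 LEA_1 and 0 of 2 LEA_5 genes passed. Both LEA_5 genes had high levels in either genotype, EM1 with 627 and 598 CPM in COL0 and 1145 and 641 in badc-tdna13. In the same 4 libraries ABI5, ABF2, ABF4 and the silique wall gene IND were called higher, and the seed coat genes MUM4, BAN and TT8 and the silique wall gene SHP2 lower. The seed coat list summed to 546 and 558 CPM in COL0 and to 629 and 688 in badc-tdna13, higher despite those 3 calls. The silique wall list summed to 121 and 109 CPM in COL0 and to 105 and 139 in badc-tdna13. Their part in the result was not tested.

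**Figure D5:**
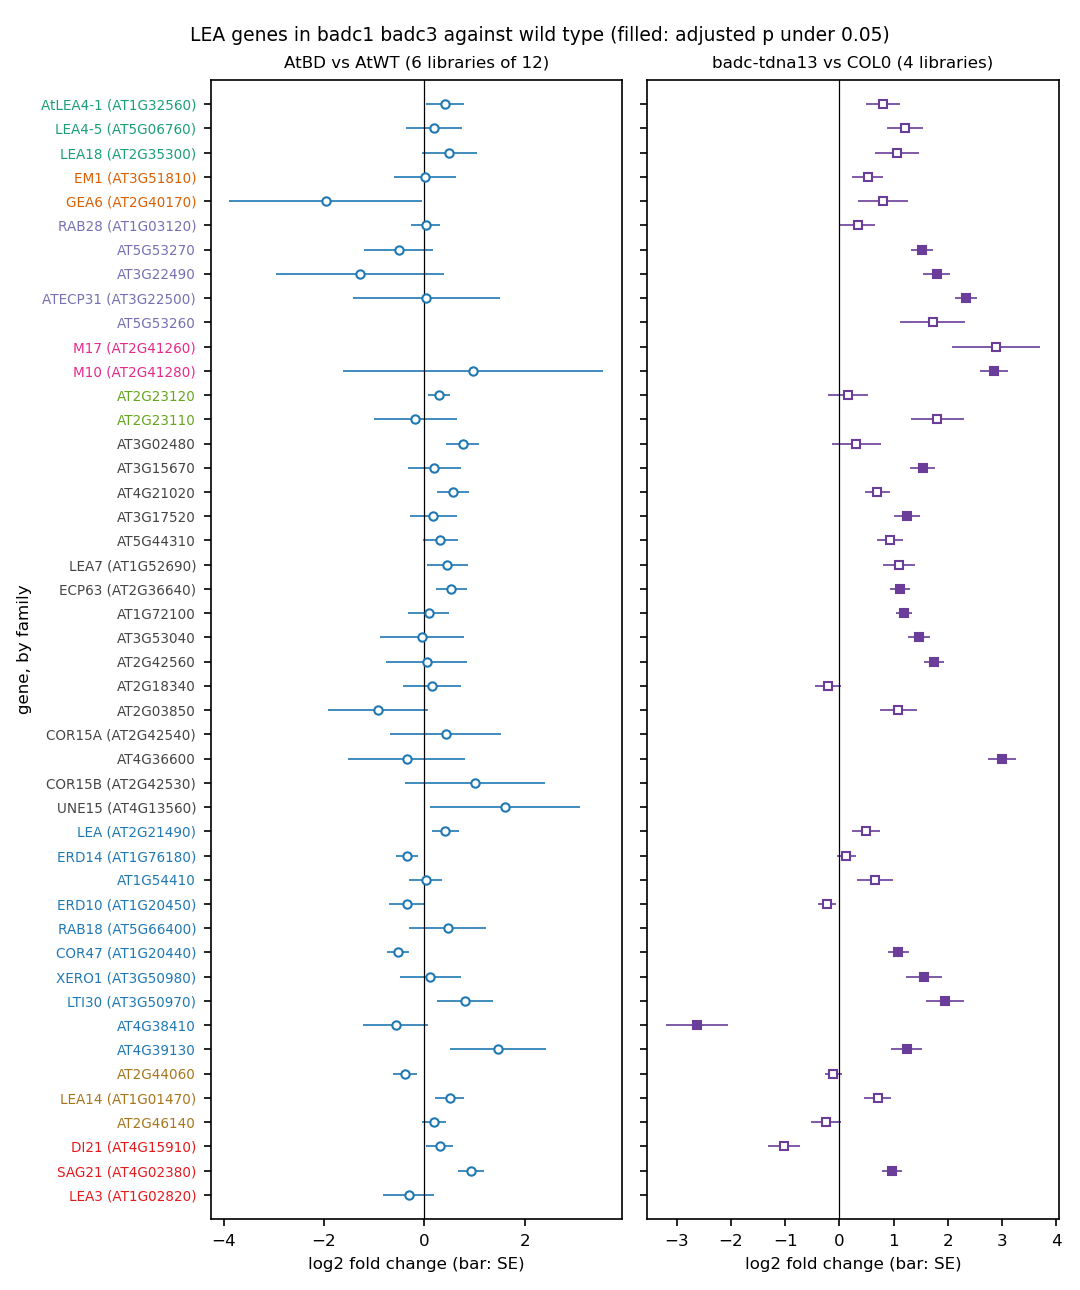
Log2 fold change of the LEA genes (rows, labels coloured by family) in the double knockout against wild type, with SE as bars, for AtBD against AtWT (left) and for the 4 libraries of the first set without the shared one (right). Filled points passed the test. None did on the left, and 16 higher and 1 lower did on the right, where the calls depend on both COL0 libraries.

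The proteins of the 51 members were translated from the coding sequences of the RefSeq annotation, with the longest product of each locus taken. This product can differ from the main form of a protein. LEA proteins are described as mostly very hydrophilic, so their low hydropathy is a description and no independent result. The median hydropathy of the 51 (Kyte-Doolittle mean per residue) was -0.98, against -0.29 over 27416 proteins. The dehydrins reached the lowest median, -1.22 with HIRD11 at -1.87, apart from the 2 Em proteins at -1.41 (EM6) and -1.47 (EM1), while the 3 LEA_2 proteins lay between -0.31 and 0.12 and the 6 SMP proteins between -0.56 and -0.10. The members that fell in the tr libraries included both very hydrophilic dehydrins and the 3 tested LEA_3 proteins, LEA3 at -0.49, SAG21 at -0.27 and DI21 at -0.25. EM1 repeats itself at a distance of 20 residues, where 70 of its 152 residues equal the residue 20 positions on, while EM6, with 92 residues and 77.2% identical to it, had its strongest self-match at 25 residues with 12 equal positions. In 13 of the 18 LEA_4 proteins the strongest self-match lay at 11 or 22 residues. The largest were 184 equal positions at 11 in AT2G18340, 143 at 22 in AT3G53040 and 127 at 22 in ECP63. Genes with such similar neighbours, ECP31 with AT3G22490, AT5G53270 with AT5G53260 (81.8% identical) and M10 with M17, may have shared reads in the authors' counting, and their separate values are uncertain to that extent.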

How the data were processed

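The second set was deposited by the authors as read counts per gene for each library, in a table with 1 unstranded and 2 stranded columns. The unstranded counts were used. The kit is named as stranded in the labels, but reads split about evenly between the strands, so where genes overlap or lie antisense to each other, their reads cannot be separated. Between 5.925% and 25.8% of the reads of a library were not assigned to a gene. The first set was deposited by the authors as Cuffdiff tables with estimated counts (fragments) and FPKM values per locus, and the estimated counts were rounded to whole numbers before the test. TopHat, Cufflinks, Cuffdiff and the TAIR10 genome are named in the submitters' processing notes, with no versions. The replicate numbers 0 to 2 of the first set are those of the Cuffdiff table and are not tied to single plants or titles.

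The members, the gene lists and the tests were chosen with earlier results of these data known. Genes passed edgeR's filter on low counts, were scaled by TMM and fitted with edgeR's quasi-likelihood test, with the 4 groups of the second set in 1 fit and the first set in another. P-values were adjusted by Benjamini-Hochberg over all genes tested. The SE given with an edgeR log2 value was worked back from the test, as its absolute size divided by the square root of F. CPM values use TMM-adjusted totals. The sets were never tested against each other. By the naming rule, values in every library are given for the member with the highest level per kilobase in AtWT in each of the 9 families, the 5 highest over all, and the up to 6 called members with the smallest adjusted p in each comparison, or the 3 with the smallest unadjusted p where none was called. EM6, RAB18, COR15A, AT2G46140, HIRD11, AT3G22490, AT2G23110 and the members given only by a fold were named after their values were seen. Intervals on shares are 95% Wilson intervals and, like the floor of 3 counts, cover counting error only. Alternatives were DESeq2, RLE scaling, plain library totals (chosen after seeing the data), other filters, fits of only the groups compared, limma on log2(FPKM + 1) and log2(FPKM + 0.1), a replicate block, and leaving out each library. Promoters and proteins came from the RefSeq annotation of TAIR10.1. Scripts ran in R 4.3.3 with edgeR 4.0.16, limma 3.58.1 and DESeq2 1.42.0, and in Python 3.11.15, and the tests were tested on simulated data.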

Additional observations from a re-analysis of the deposited data

How the results depend on the processing

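The counts of members called in the second set kept within 1.5 times under every alternative run. With plain library totals, an alternative chosen after seeing the data, the median log2 change of the members in AtWTtr against AtWT was 1.43 in place of 2.38. In the first set, 0 members were called with all 6 libraries, and 16 higher and 1 lower without both identical libraries. Over the fits that left out libraries the counts ran from 0 to 32 higher and from 0 to 5 lower. Without both identical libraries and badc-tdna13 replicate 0, AT2G23120 stood at -0.55 and AT3G02480 at -0.57, the opposite direction to the values with all libraries. Without badc-tdna13 replicate 0 alone, AT2G23120 was at -0.54 and AT3G02480 at -0.62. Without COL0 replicate 2 alone, they were at -0.16 and -0.08. Without both identical libraries and badc-tdna13 replicate 1, AT2G23120 stood at 0.62 and AT3G02480 at 0.84. The cause was not tested. Counts over all genes moved more. AtBD against AtWT gave 11 genes, 77 by DESeq2, 43 with no filter on low counts, 287 with only the 2 groups in the fit and 5 to 7 with a library left out. AtBDtr against AtWTtr gave 8, 21 by DESeq2, 31 with no filter, 5 with only the 2 groups and up to 13 with a library left out. AtWTtr against AtWT gave 6623 and 10640 with plain library totals. The interaction gave 0 and 4 by DESeq2. The first set gave 0, 1 by DESeq2, by limma on FPKM and with plain totals, and 1912 without both identical libraries. With a window of 150 bases the ABRE core was found in 33 members, the RY element in 6 and the CRT/DRE core in 10.

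Same-numbered libraries of different groups in the second set were compared after each gene's group mean had been taken off its log CPM. What remained correlated at -0.277 to 0.0936, which shows no sign of pairing by replicate number. Low values of this kind cannot settle whether the libraries were paired. With the replicate number as a block, 29 members were higher and 8 lower in AtWTtr against AtWT, 29 and 9 in AtBDtr against AtBD, and 0 in AtBD against AtWT, AtBDtr against AtWTtr and the interaction. The block gave 5857, 4907, 10, 6 and 0 calls over all genes. The first set was not fitted with a block, since the replicate numbers of its Cuffdiff table could not be tied to sample titles.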
